A study of Mus musculus with 12 samples.

Results

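Mitosis and chromosome segregation genes were examined in tumor-associated macrophages (TAMs) sorted from mouse gliomas by whether the cells had taken up a fluorescent nanoparticle. The group holds 52 protein-coding genes, found in the count table by matching the gene symbol. They are 52 of 54532 genes listed there, and each of the 52 was among the 15014 genes with enough reads to be tested. The study injected glioma-bearing mice by vein with perfluoro-crown-ether nanoparticles carrying rhodamine, and 24 h later sorted 2 populations from each of 6 tumors. TAMs with rhodamine (nanoparticle-positive) and TAMs without it each gave 1 library per mouse, so there were 12 libraries in 6 pairs. They are called the positive and the negative sort below. All mice carried the genotype labelled Ntv-a_Ink4a/Arf_KO and all received the nanoparticle. Mice 1 to 4 were male and mice 5 and 6 were female, and no age is given in the sources used here. Both populations shared the gate CD45+, CD11b+ and Ly6C-, each sort yielded more than 2000 cells, and all libraries have the same batch label. In Ntv-a mice a viral receptor is expressed from the nestin promoter, which lets an avian retrovirus infect nestin-expressing cells. The retroviral construct, if one was used here, is not given in the sources used here. No group of mice without nanoparticle and no sample of unsorted tumor was analysed here, so the comparison is between sorts within treated tumors.

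Cells entering mitosis build up cyclins A2 and B, which activate the kinase Cdk1, and Polo-like and Aurora kinases then mature the centrosomes and assemble the spindle. Kinetochores built on centromeric chromatin capture microtubules, and the spindle assembly checkpoint holds back the anaphase-promoting complex (APC/C) until all chromosomes are attached. The APC/C then destroys securin and cyclin B, which frees separase to cut cohesin, and a central spindle directs cytokinesis. Most of these genes are transcribed in G2 and mitosis and are low in resting cells, so they are widely read as marks of dividing cells. TAMs derive from resident microglia and recruited monocytes, and both can divide within a tumor.

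Many promoters of this program carry a CHR element (cell cycle genes homology region, TTTGAA), at which the DREAM and MuvB complexes bind, and CCAAT boxes (CCAAT), which bind NF-Y. RefSeq promoter windows on GRCm38.p6, from 250 bases before to 50 bases after the annotated start, were held for 44 of the 52 genes. The following 90-base stretches end at the base before the start and read 5′ to 3′ on the gene's strand. They are shown because Cdk1, Cdc20, Kif11 and Top2a belong to the kinase, checkpoint, kinesin and chromosome groups that rose in nanoparticle-positive TAMs. Espl1 (separase) had the smallest estimated change. Each stretch shown holds both motifs, and so the stretches are not typical of the 44 windows, whose shares are given below. Capitals mark TTTGAA or its reverse complement TTCAAA, and CCAAT or its reverse complement ATTGG.
Cdk1: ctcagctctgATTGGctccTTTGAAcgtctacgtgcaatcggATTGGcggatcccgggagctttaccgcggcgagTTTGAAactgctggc
Cdc20: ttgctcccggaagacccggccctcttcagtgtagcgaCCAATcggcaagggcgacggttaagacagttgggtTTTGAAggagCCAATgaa
Kif11: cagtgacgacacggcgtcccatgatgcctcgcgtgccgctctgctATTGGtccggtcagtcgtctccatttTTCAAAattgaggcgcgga
Top2a: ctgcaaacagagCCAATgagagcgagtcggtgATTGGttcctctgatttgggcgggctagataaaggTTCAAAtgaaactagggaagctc
Espl1: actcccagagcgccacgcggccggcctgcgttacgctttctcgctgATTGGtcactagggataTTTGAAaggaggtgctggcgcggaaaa
The stretches lie at chr10:69352913-69353002, minus strand for Cdk1, chr4:118437344-118437433, minus strand for Cdc20, chr19:37376292-37376381, plus strand for Kif11, chr11:99024190-99024279, minus strand for Top2a and chr15:102296203-102296292, plus strand for Espl1.

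TTTGAA on either strand occurred in 34 of the 44 windows (77.3%), against 14.9% of the 10194 tested genes with a window and 20.2% of all 27025 genes with one. CCAAT on either strand occurred in 33 of 44 (75.0%), against 42.8% of tested genes. Both motifs occurred together in 29 of 44 (65.9%), against 7.27% of tested genes. Letters of E2F-like sites (TTCGCGC, TTTGGCGC or TTCCCGCC on either strand, counted apart from the other motifs even where bases overlap) occurred in 4 of 44 windows (9.09%), close to the 8.95% of tested genes. Within 50 bases on either side of the start, a range chosen after the positions were seen, TTTGAA occurred in 31 of 44 windows (70.5%) and in 3.90% of tested genes. A match to these letters is a description of the window and not a measured binding site. Of the 4 genes that did not pass the test below, the windows of Espl1, Fbxo5 and Kif15 held TTTGAA, and that of Pttg1 held neither TTTGAA nor CCAAT. The windows of Mad2l1, Birc5, Nuf2, Nusap1 and Ncaph also held neither motif, and these genes were called higher.

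**Figure D1:**
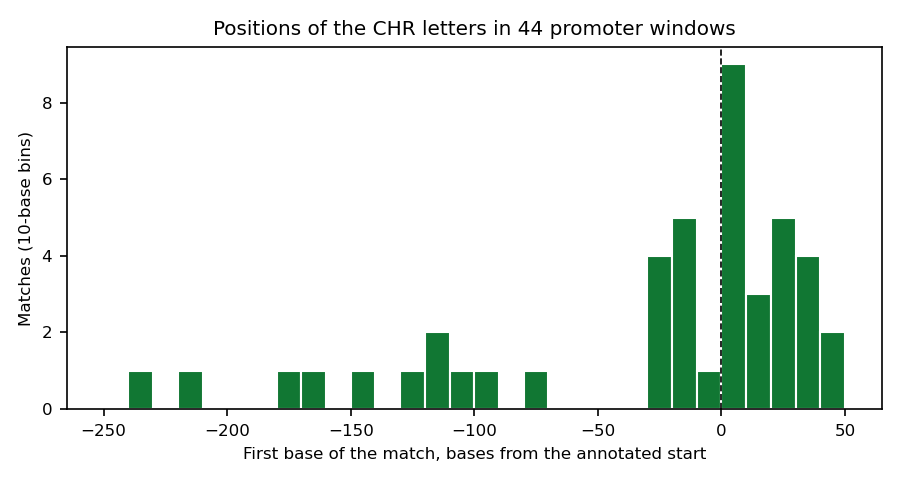
Positions of the CHR letters (TTTGAA on either strand) in the promoter windows of 44 mitosis genes. The x axis is the distance in bases of the first base of each match from the RefSeq start (dashed line) and the y axis is the number of matches in 10-base bins; of 44 matches, 33 begin within 50 bases of the start.

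Library totals ran from 13073189 to 17379314 counts, and genes tested held 99.8% of them. The macrophage markers Ptprc, Itgam, Csf1r, Adgre1, Cd68, Aif1, Fcgr1, Mertk, C1qa and C1qb were all above 10 counts in some library and together gave 8913 to 19414 CPM (counts per 1000000 after TMM scaling, edgeR's trimmed mean of M-values) in the negative sort and 20913 to 24359 CPM in the positive sort. The lowest of these was the rhodamine-negative library of mouse 5. Cdkn2a, which encodes the Ink4a and Arf products that the genotype label names as knocked out, had 2 to 33 counts per library, and whether those reads lie in the deleted part was not examined. Over all 15014 genes tested, 1955 were higher (13%) and 1986 lower (13.2%) in rhodamine-positive TAMs at an adjusted p under 0.05, with a median log2 fold change of -0.02. Calls were thus 49.6% higher, a share that was 21.3% when libraries were scaled by total count alone, a scaling that placed the median of all genes at -0.18.

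Mitosis genes were higher in nanoparticle-positive TAMs as a group. Of the 52, 48 rose and none fell, against 13% of all tested genes called higher, by edgeR's quasi-likelihood test with the mouse as a block and Benjamini-Hochberg adjustment over all genes tested. All 52 estimates were above 0, so none was lower at an unadjusted p either, and neither limma-voom nor DESeq2 called any lower. The median log2 fold change was 0.80 (1.74-fold), and the estimates ran from 0.03 (Espl1) to 1.12 (Plk1). In 44 genes the rhodamine-positive library was the higher of the pair in 6 of 6 mice, against 14.2% of all tested genes. In 32 genes every rhodamine-positive library was above every rhodamine-negative library, against 4.14% of all tested genes. The rise was moderate in size: 9 of the 52 were called higher and at least 2-fold (Plk1, Spc24, Ube2c, Ccnb2, Cdca3, Spc25, Birc5, Racgap1 and Nusap1), against 0.626% of all tested genes.

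Summed over the 52 genes, the 6 libraries of the negative sort held 1030 to 1290 CPM (median 1112) and those of the positive sort 1637 to 2202 CPM (median 2032). The ranges did not overlap. Within mice 1 to 6 the ratio of positive to negative was 1.67, 1.49, 1.56, 1.90, 1.93 and 1.71. The group made up 0.114% to 0.134% of all counts in the negative sort and 0.151% to 0.212% in the positive sort. Because each library is RNA from a pool of cells, more cells in mitosis and more mitotic RNA per dividing cell cannot be told apart.

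Marker levels of macrophages and of other cells of a tumor are given beside this rise, and their part in it was not tested. The gate is meant to leave out glioma, endothelial and erythroid cells (CD45+), most T and B cells (CD11b+) and Ly6C+ monocytes (Ly6C-). Some dendritic cells could pass it, and how far it left out the others was not tested. Transcripts of the monocyte list were present, such as Ccr2 (means 162 CPM in the negative and 27.4 CPM in the positive sort) and Plac8 (158 and 24.0 CPM). The 10 macrophage markers, summed, were 1.25 to 2.35 times as high in the rhodamine-positive library of each mouse, with 6 genes higher and 1 (Ptprc) lower. Dendritic cell markers (8 of 10 lower) summed to 1238 to 1917 CPM in the negative and 833 to 1138 CPM in the positive sort. The 2 not called, Irf8 (means 463 and 469 CPM) and Siglech (354 and 301 CPM), held much of these sums. Flt3 had means of 130 CPM in the negative and 24.3 CPM in the positive sort, and Cd209a 129 and 12.2 CPM. Monocyte and granulocyte markers (3 of the 4 tested of 10 lower) summed to 223 to 580.4 and 30.1 to 78.7 CPM. The dendritic sum and the monocyte and granulocyte sum were lower in the positive sort in each of the 6 mice. Glioma and oligodendrocyte lineage markers (8 of the 15 tested of 18 lower, none higher) summed to 278 to 349 and 239 to 329 CPM, with Sox2 and Mog at 10 counts or fewer in every library. B and plasma cell markers (2 of the 5 tested of 7 lower) summed to 166 to 294 and 117 to 269 CPM, with Pax5 at 10 counts or fewer. T and NK cell markers summed to 6.75 to 39.7 and 6.43 to 16.6 CPM, with 1 higher and 1 lower of the 2 tested of 12, and Cd3e, Cd3d, Cd3g, Cd2 and Cd8a were at 10 counts or fewer. Endothelial and erythroid markers (none called of the 6 tested of 8) summed to 19.1 to 80.5 and 24.5 to 64.5 CPM. The ranges of these last 4 lists overlapped between the sorts. In the glioma list Cnp was most abundant (means 141 and 139 CPM, not called). In the B cell list it was Ighm (187 and 146 CPM, called lower). Scarcer genes of these lists fell further, with log2 fold changes of -2.11 for Pdgfra, -7.41 for Jchain and -5.44 for Gzmb, while Cd4 rose by 0.90. Per 1000 CPM of macrophage markers, the mitosis genes were higher in the rhodamine-positive library in 5 of 6 mice. In mouse 5 the order was the opposite, at 116 CPM in the rhodamine-negative and 94.9 CPM in the rhodamine-positive library. The most abundant of the macrophage markers was C1qb, with a mean of 6931 CPM in the negative and 10473 CPM in the positive sort. C1qb was itself called higher (log2 fold change 0.66). In the marker sum, more macrophages and more marker RNA per macrophage cannot be told apart.

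**Figure D2:**
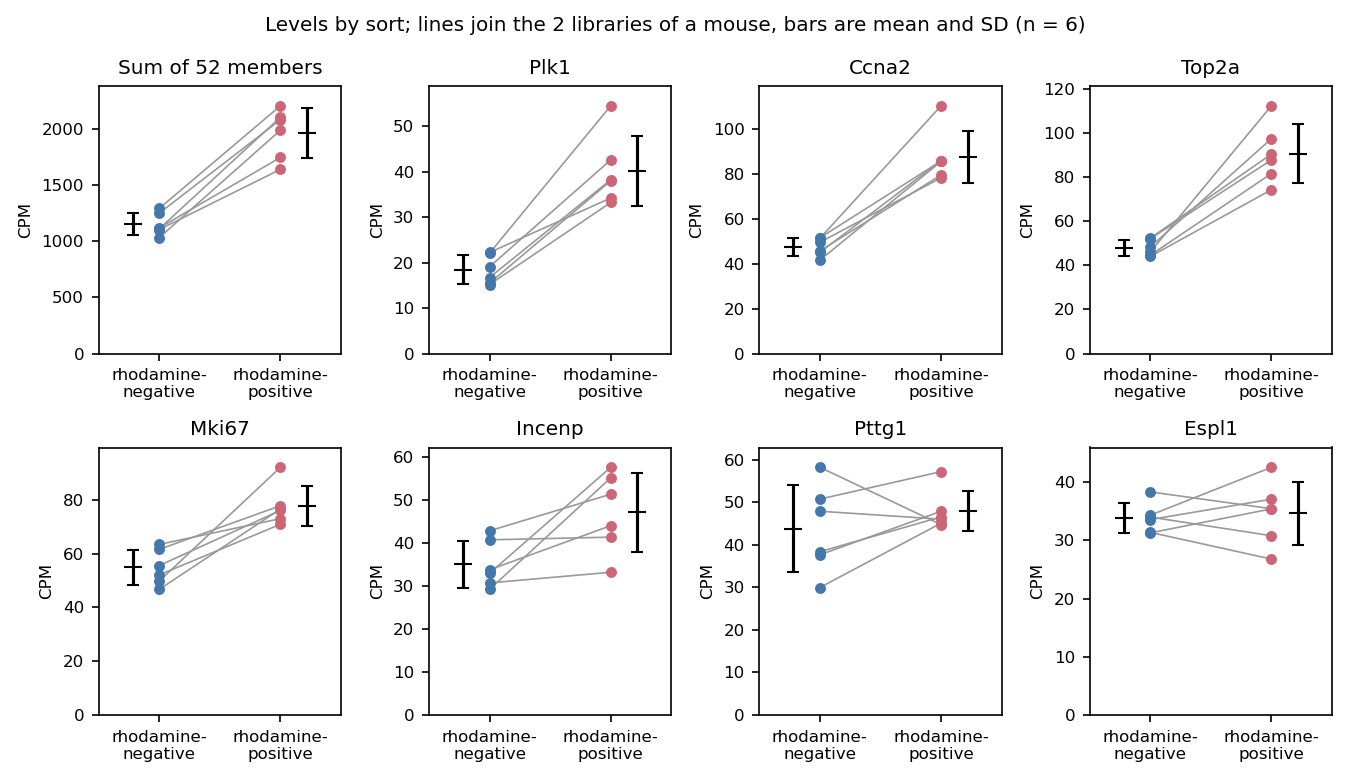
Levels in CPM (y axes, from 0) of the sum of the 52 mitosis genes and of 7 single genes in rhodamine-negative (blue) and rhodamine-positive (red) libraries, with a line for each mouse and the mean and SD (n = 6) as bars. The sum rises in each mouse from 1030 to 1290 up to 1637 to 2202 CPM, as do Plk1, Ccna2, Top2a and Mki67, while the lines of Pttg1 and Espl1 cross.

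The kinases and cyclins that drive entry into mitosis rose together: 7 of 7 were higher (median log2 fold change 0.94), each in 6 of 6 mice and with no overlap between the sorts. Ccna2 (cyclin A2, ENSMUSG00000027715) ran from 41.5 to 51.4 CPM (median 47.5) in the negative sort and from 78.2 to 110.2 CPM (median 85.5) in the positive sort, with log2 fold change 0.88, SE 0.0899, edgeR adjusted p = 5.83e-05. Cdk1, the catalytic partner of cyclins A2 and B, ran from 26.4 to 51.98 CPM (median 41.5) in the negative sort and from 60.6 to 86.7 CPM (median 74.5) in the positive sort, with log2 fold change 0.94, SE 0.103, edgeR adjusted p = 9.49e-05. Plk1, a kinase of centrosome maturation and mitotic exit, ran from 15.2 to 22.2 CPM (median 17.9) in the negative sort and from 33.2 to 54.4 CPM (median 38.1) in the positive sort, with log2 fold change 1.12, SE 0.114, edgeR adjusted p = 5.78e-05. Plk1 was the largest change of the group, with the lowest library of the positive sort well above the highest of the negative sort. The B-type cyclins Ccnb1 (log2 fold change 0.94) and Ccnb2 (1.05), the spindle-pole kinase Aurka (0.87) and the centrosome-separating kinase Nek2 (0.96) rose by similar amounts.

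Among the spindle assembly checkpoint and APC/C regulators, 6 of 9 rose (median 0.80), and the 3 others were securin, separase and an inhibitor of the APC/C. Ube2c, the ubiquitin-conjugating enzyme of the APC/C, ran from 16.2 to 34.3 CPM (median 24.6) in the negative sort and from 39.9 to 60.1 CPM (median 51.8) in the positive sort, with log2 fold change 1.06, SE 0.115, edgeR adjusted p = 9.33e-05. Its 2 sorts did not overlap. Cdc20, the mitotic activator of the APC/C, rose by a log2 fold change of 0.91, and the checkpoint genes Bub1 (0.80), Bub1b (0.88), Mad2l1 (0.74) and Ttk (0.89) rose as well. Ttk was the least certain of these, with 31 to 176 counts per library and a higher rhodamine-positive level in 5 of 6 mice. Pttg1 (securin), which holds separase inactive, ran from 29.98 to 58.2 CPM (median 43.1) in the negative sort and from 44.8 to 57.2 CPM (median 46.3) in the positive sort, and it did not pass the test (log2 fold change 0.16, SE 0.121, edgeR adjusted p = 0.367). Espl1 (separase), the protease that opens cohesin, ran from 31.3 to 38.3 CPM (median 33.8) in the negative sort and from 26.8 to 42.5 CPM (median 35.4) in the positive sort, and it did not pass the test either (log2 fold change 0.03, SE 0.104, edgeR adjusted p = 0.88). The sorts of both genes overlapped widely, and the pair difference was above 0 in 4 of 6 mice for Pttg1 and in 3 of 6 for Espl1. Fbxo5 (Emi1), an inhibitor of the APC/C, ran from 6.44 to 10.9 CPM (median 8.75) in the negative sort and from 7.14 to 15.6 CPM (median 11.8) in the positive sort, with log2 fold change 0.35, SE 0.231, edgeR adjusted p = 0.295. Its pair differences spread from -0.59 to 1.00 on the log2 scale, with 92 to 246 counts per library. Fbxo5, and Kif15 below, are described because they did not pass the test, a choice made after their values were seen.

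All 4 subunits of the chromosomal passenger complex, which corrects faulty attachments and then moves to the central spindle, rose (median 0.81). Birc5 (survivin) ran from 21.9 to 38.5 CPM (median 34.5) in the negative sort and from 44.8 to 92.5 CPM (median 61.5) in the positive sort, with log2 fold change 1.03, SE 0.120, edgeR adjusted p = 0.000151. Incenp, the scaffold of the complex, ran from 29.2 to 42.8 CPM (median 33.3) in the negative sort and from 33.1 to 57.5 CPM (median 47.6) in the positive sort, with log2 fold change 0.42, SE 0.129, edgeR adjusted p = 0.0331. Birc5 separated the sorts completely, whereas Incenp overlapped between them and differed by 0.02 (log2) in mouse 2. The kinase Aurkb (log2 fold change 0.85) and Cdca8 (borealin, 0.77) lay between these.

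Centromere and kinetochore genes were higher in 7 of 7 (median 0.81). Cenpa, the histone H3 variant of centromeres, ran from 31.9 to 46.1 CPM (median 37.97) in the negative sort and from 37.2 to 75.2 CPM (median 52.3) in the positive sort, with log2 fold change 0.50, SE 0.110, edgeR adjusted p = 0.00634. Cenpe, a kinetochore kinesin, ran from 14.5 to 20.9 CPM (median 19.9) in the negative sort and from 18.5 to 32.5 CPM (median 24.7) in the positive sort, with log2 fold change 0.48, SE 0.119, edgeR adjusted p = 0.0124. Spc24, a subunit of the Ndc80 complex that binds microtubules, ran from 7.31 to 14.3 CPM (median 11.9) in the negative sort and from 20.02 to 28.1 CPM (median 23.9) in the positive sort, with log2 fold change 1.06, SE 0.146, edgeR adjusted p = 0.000418. The sorts overlapped for Cenpa and Cenpe and were separate for Spc24. The 4 subunits of the Ndc80 complex rose together, by 0.86 for Ndc80, 0.81 for Nuf2, 1.06 for Spc24 and 1.03 for Spc25. Per kilobase of the longest coding transcript, their mean levels were 4.36 and 8.02 CPM for Ndc80, 4.52 and 7.93 for Nuf2, 6.88 and 14.2 for Spc24, and 9.43 and 19.2 for Spc25 in the negative and the positive sort. Cenpf, a large protein of the outer kinetochore, rose by 0.66 and was higher in 5 of 6 mice.

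Mitotic kinesins rose in 8 of 9 (median 0.69), and none reached 2-fold. Kif20a, which carries the passenger complex to the central spindle, ran from 20.2 to 29.1 CPM (median 22.8) in the negative sort and from 28.9 to 48.6 CPM (median 44.3) in the positive sort, with log2 fold change 0.82, SE 0.120, edgeR adjusted p = 0.000623. Kif2c (MCAK), a microtubule depolymerase, ran from 15.5 to 27.01 CPM (median 21.3) in the negative sort and from 25.2 to 45.2 CPM (median 32.5) in the positive sort, with log2 fold change 0.69, SE 0.143, edgeR adjusted p = 0.00475. Both overlapped slightly between the sorts but were higher in the rhodamine-positive library of each mouse. Kif11, which pushes the spindle poles apart (0.78), Kif18b (0.81), the chromosome-arm motors Kif22 (0.76) and Kif4 (0.67), and Kif23 of the centralspindlin complex (0.69) also rose, and Kif20b rose by 0.42 (edgeR adjusted p = 0.0402). Kif15, a spindle motor with a role overlapping that of Kif11, ran from 6.32 to 8.69 CPM (median 7.42) in the negative sort and from 6.05 to 12.6 CPM (median 9.02) in the positive sort, and it did not pass the test (log2 fold change 0.30, SE 0.163, edgeR adjusted p = 0.204).

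Spindle assembly and cytokinesis factors rose in 8 of 8 (median 0.82). Racgap1, the partner of Kif23 in centralspindlin, ran from 30.6 to 50.1 CPM (median 38.99) in the negative sort and from 66.9 to 85.5 CPM (median 82.7) in the positive sort, with log2 fold change 1.01, SE 0.109, edgeR adjusted p = 8.64e-05. Cdca3, which acts in the degradation of the Cdk1 inhibitor Wee1, ran from 19.1 to 30.4 CPM (median 23.7) in the negative sort and from 35.4 to 70.1 CPM (median 49.4) in the positive sort, with log2 fold change 1.05, SE 0.109, edgeR adjusted p = 6.23e-05. Neither gene overlapped between the sorts. The microtubule-bundling factors Nusap1 (1.00) and Prc1 (0.85), the contractile-ring scaffold Anln (0.79), the spindle proteins Hmmr (0.71) and Tpx2 (0.67), and the cytokinesis exchange factor Ect2 (0.62) rose too. Hmmr, Nusap1, Prc1 and Anln were also separate between the sorts, and Ect2 was higher in 5 of 6 mice.

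Condensin subunits, topoisomerase II alpha and Ki-67, which shape and coat mitotic chromosomes, rose in 7 of 7 (median 0.77), each in 6 of 6 mice. Top2a, which untangles sister chromatids, ran from 44.04 to 52.3 CPM (median 47.2) in the negative sort and from 74.3 to 112 CPM (median 89.2) in the positive sort, with log2 fold change 0.91, SE 0.0946, edgeR adjusted p = 6.40e-05. Mki67 (Ki-67), a widely used marker of proliferation, ran from 46.7 to 63.4 CPM (median 53.9) in the negative sort and from 70.95 to 92.1 CPM (median 76.4) in the positive sort, with log2 fold change 0.51, SE 0.102, edgeR adjusted p = 0.00401. Both were separate between the sorts, but the rise of Mki67 (1.42-fold) was among the smaller of the 52 and that of Top2a (1.88-fold) among the larger. The condensin genes Ncapg, Smc2, Ncaph, Ncapd2 and Smc4 rose by 0.50 to 0.81. Foxm1, the transcription factor that activates many genes of G2 and mitosis, ran from 7.46 to 10.4 CPM (median 9.34) in the negative sort and from 12.1 to 14.3 CPM (median 13.1) in the positive sort, with log2 fold change 0.55, SE 0.132, edgeR adjusted p = 0.0104. Its sorts did not overlap.

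**Figure D3:**
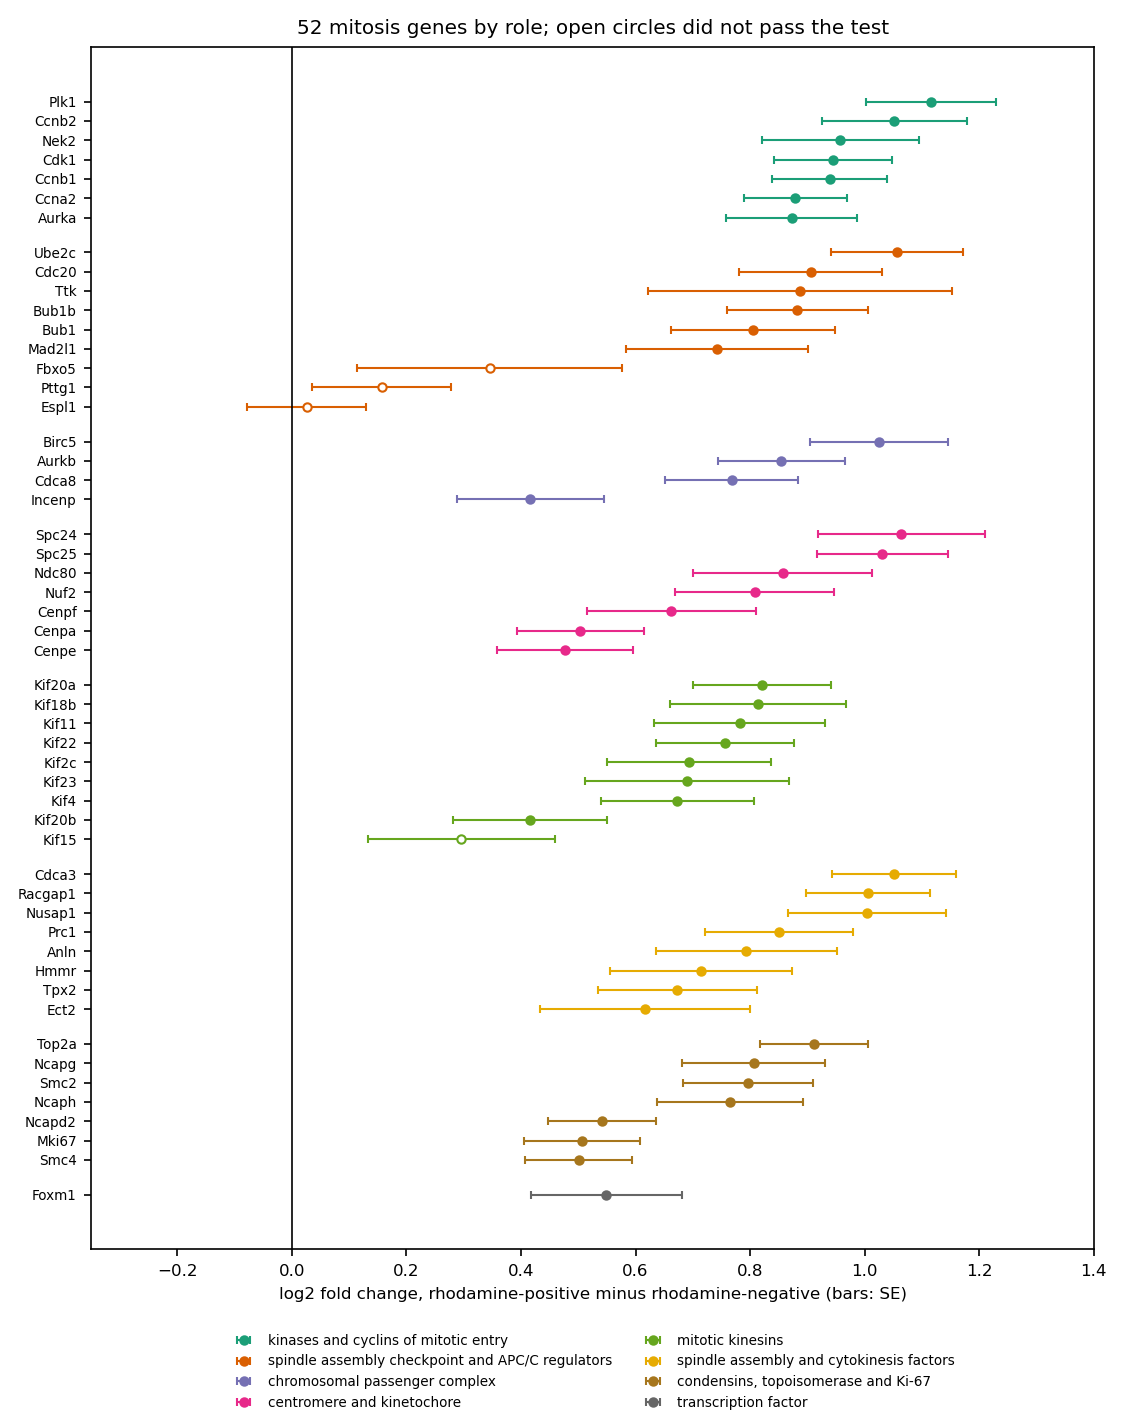
Fitted log2 fold change of each of the 52 mitosis genes (x axis, rhodamine-positive minus rhodamine-negative, bars are SE), grouped and coloured by role. Filled circles passed the test and open circles (Fbxo5, Pttg1, Espl1 and Kif15) did not; estimates run from 0.03 for Espl1 to 1.12 for Plk1.

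Of the 48 calls, 5 were lost when 1 mouse was left out. Incenp had an edgeR adjusted p of 0.0592 to 0.0823 without mouse 1, 4, 5 or 6, and Ttk of 0.0571 to 0.0886 without mouse 1, 2, 4, 5 or 6. Kif20b had 0.0575 to 0.110 without mouse 1, 3, 4, 5 or 6, Ect2 had 0.0644 to 0.101 without mouse 3, 4 or 6, and Kif23 had 0.0523 without mouse 3. Over 18 other settings, Kif20b was called in 6 and Incenp and Ttk in 10, and Incenp had an edgeR adjusted p of 0.0526 without the mouse as a block. Incenp, Ttk, Kif20b, Ect2, Kif23, Cenpe and Foxm1 also lost their calls when libraries were scaled by total count alone, where 41 of the 52 rose, the median was 0.64, and 50 estimates were above 0. In male mice alone 8 calls were lost, those of Mad2l1, Hmmr, Cenpa, Cenpe, Ttk, Incenp, Kif20b and Ect2.

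By mouse, the median difference of the 52 genes on the log2 CPM scale was 0.77, 0.57, 0.66, 1.03, 0.98 and 0.70 in mice 1 to 6. In these mice 51, 48, 47, 50, 52 and 51 of the genes were higher in the rhodamine-positive library. Mouse 5, a female, was the pair in which no gene of the group was lower, and mouse 3 the pair with the most lower (5 genes). The sort effect was not shown to differ between the 4 males and 2 females for any gene: 0% of all tested genes passed an interaction test of sort and sex by edgeR, and 0 by limma-voom. At an unadjusted p under 0.05 the edgeR test held 3 of the 52 (Ccnb2, Birc5 and Hmmr, 5.77%) and 1160 of all genes (7.73%). The estimates of the 52 ran from -0.35 to 0.73 (female minus male, log2), and 36 of them were above 0.

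**Figure D4:**
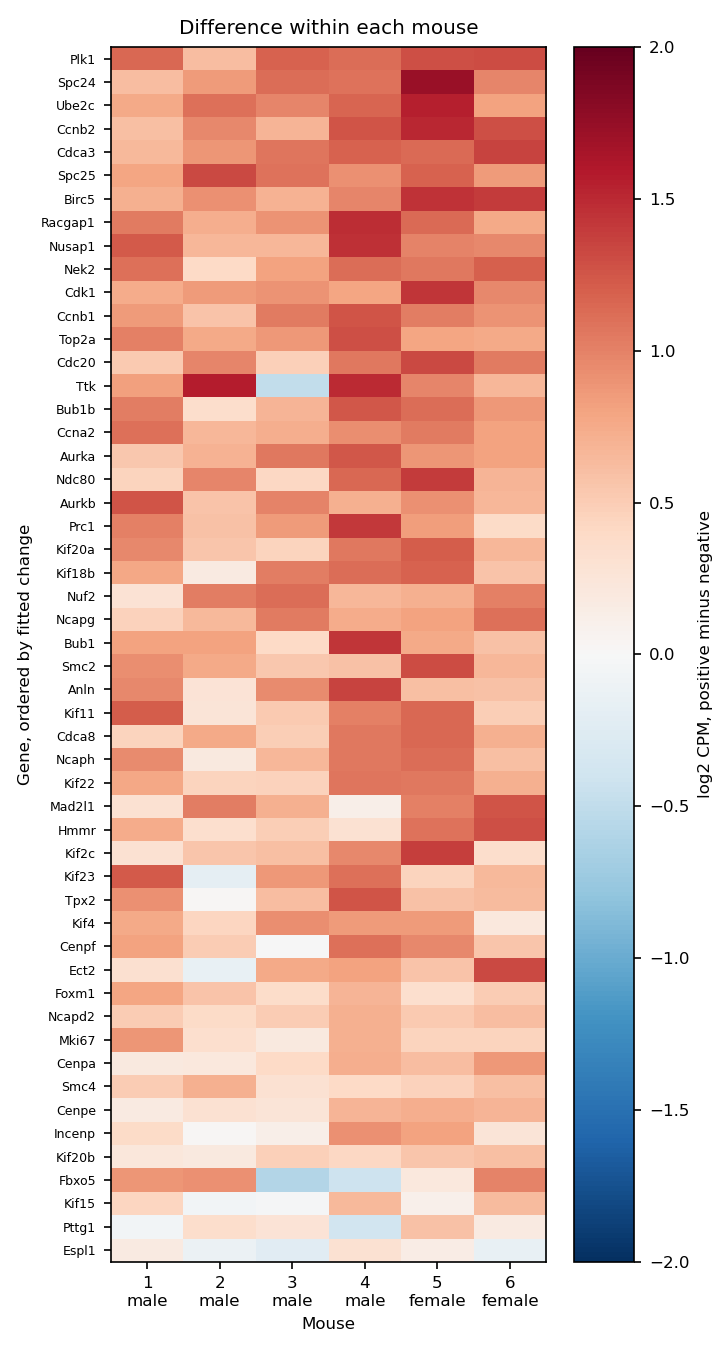
Difference in log2 CPM between the rhodamine-positive and rhodamine-negative library of each mouse (columns, 1 to 4 male and 5 to 6 female) for the 52 mitosis genes (rows, ordered by fitted change). Red is higher in the rhodamine-positive library; 44 rows are red in all 6 columns, and the blue cells fall mainly in Espl1, Pttg1, Kif15 and Fbxo5 and in single mice for Ttk, Kif23, Ect2 and Cenpf.

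The levels within the group varied widely. Per kilobase of the longest coding transcript, mean levels in rhodamine-negative libraries were highest for Pttg1 (26.2 CPM) and Cenpa (26.0 CPM) and lowest for Ttk (1.23 CPM) and Cenpf (1.32 CPM). Across the 52 genes, the log2 fold change was lower for longer transcripts (Pearson -0.37 and Spearman -0.44 with log2 length) and only loosely related to the mean level (Pearson 0.17, Spearman 0.25). These correlations are across genes that share the same 12 libraries and describe the group without a test. Over the 12 libraries, the deviations of pairs of these genes from their sort means had a median correlation of 0.29, and 75.0% of the 1326 pairs were above 0. The same values over all tested genes were not computed, so they do not set this group apart from other genes.

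For 12 of the genes, exons overlap a gene on the opposite strand, and whether the counting used strand is not given in the sources used here, so reads in the shared bases cannot be assigned to one gene of the pair. The overlaps run from 53 exon bases (Cdc20 with Elovl1) upward, and some partners held few reads, such as Tnnc2, which overlaps Ube2c, with 21 counts over all libraries. The longest is 1271 exon bases between Kif20a and Cdc23, an APC/C subunit that rose by 0.51. Exosc9, which overlaps Ccna2, rose by 0.47, and Lcorl, which overlaps Ncapg, had -0.12 (edgeR adjusted p = 0.446). Pseudogene copies held few reads: Ccnb2-ps had 120 counts over all libraries and Ccnb1-ps had 55.

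Other cell cycle lists were read from the same fit, and differences between lists were not tested. Among 67 further mitotic genes, 41 rose and 1 fell (median log2 fold change 0.58), beside 13% and 13.2% of all tested genes. Those with the smallest p were Pbk, a mitotic kinase (log2 fold change 1.02, edgeR adjusted p = 0.000151), Stmn1, which destabilizes microtubules (log2 fold change 0.92, edgeR adjusted p = 0.000178), and Shcbp1, a midzone protein (log2 fold change 0.91, edgeR adjusted p = 0.000224). The gene that fell was Lmnb1 (log2 fold change -1.29, edgeR adjusted p = 0.00128), which encodes lamin B1 of the nuclear envelope and was named after its value was seen. Among 45 DNA replication and S phase genes, 30 rose and none fell (median 0.44), led by the ribonucleotide reductase subunits Rrm1 (log2 fold change 0.81, edgeR adjusted p = 8.61e-05) and Rrm2 (log2 fold change 0.83, edgeR adjusted p = 0.000552) and by thymidylate synthase, Tyms (log2 fold change 0.77, edgeR adjusted p = 0.000214). Summed over each list, the ratio of the 52 mitosis genes to the S phase genes ran from 0.695 to 0.881 in the negative and from 0.864 to 1.05 in the positive sort. The ratio was higher in the rhodamine-positive library of each of the 6 mice, although the 2 ranges overlapped.

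Of 25 core APC/C and cohesin genes, 6 rose (24%) and 2 fell (8%), beside 13% and 13.2% of all tested genes, with a median of 0.11. The smallest p values belonged to the cohesin loader Mau2 (log2 fold change -0.38, edgeR adjusted p = 0.0064), to Cdc23 (log2 fold change 0.51, edgeR adjusted p = 0.00736), whose exons overlap Kif20a, and to Anapc5 (log2 fold change 0.39, edgeR adjusted p = 0.00857). Of 19 E2F, DREAM and MuvB regulators, some of which form the complexes named above, 3 rose (15.8%) and 1 fell (5.26%), with a median of -0.04. The share that rose is near the 13% of all tested genes and is no result about the list. The 4 were Tfdp1, the E2F partner (log2 fold change 0.48, edgeR adjusted p = 0.00475), Mybl2 or B-Myb (log2 fold change 0.64, edgeR adjusted p = 0.0143), the chromatin factor Rbbp4 (log2 fold change 0.27, edgeR adjusted p = 0.0332) and, lower, Lin37 of MuvB (log2 fold change -0.35, edgeR adjusted p = 0.0473), which was named after its value was seen.

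Of 18 tested genes among 21 of G1 and cell cycle exit, 8 fell (44.4%), 1 rose (5.56%) and 9 did not pass the test, beside 13.2% of all tested genes lower and 13% higher, with a median of -0.30. The smallest p values belonged to cyclin D2, Ccnd2 (log2 fold change -2.28, edgeR adjusted p = 1.80e-06), and to the antiproliferative genes Btg2 (log2 fold change -1.22, edgeR adjusted p = 4.15e-06) and Btg1 (log2 fold change -1.21, edgeR adjusted p = 0.00033). The Cdk inhibitors Cdkn1a (log2 fold change -0.70, edgeR adjusted p = 0.000354) and Cdkn1b (log2 fold change -1.10, edgeR adjusted p = 0.00167), cyclin D3 (Ccnd3, -0.71) and the factors Klf4 (-0.96) and Klf2 (-0.57) were the others that fell. The gene that rose was Cdk4 (log2 fold change 0.48, edgeR adjusted p = 0.0013), the kinase partner of D-type cyclins. Those 6 genes were named after their values were seen.

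**Figure D5:**
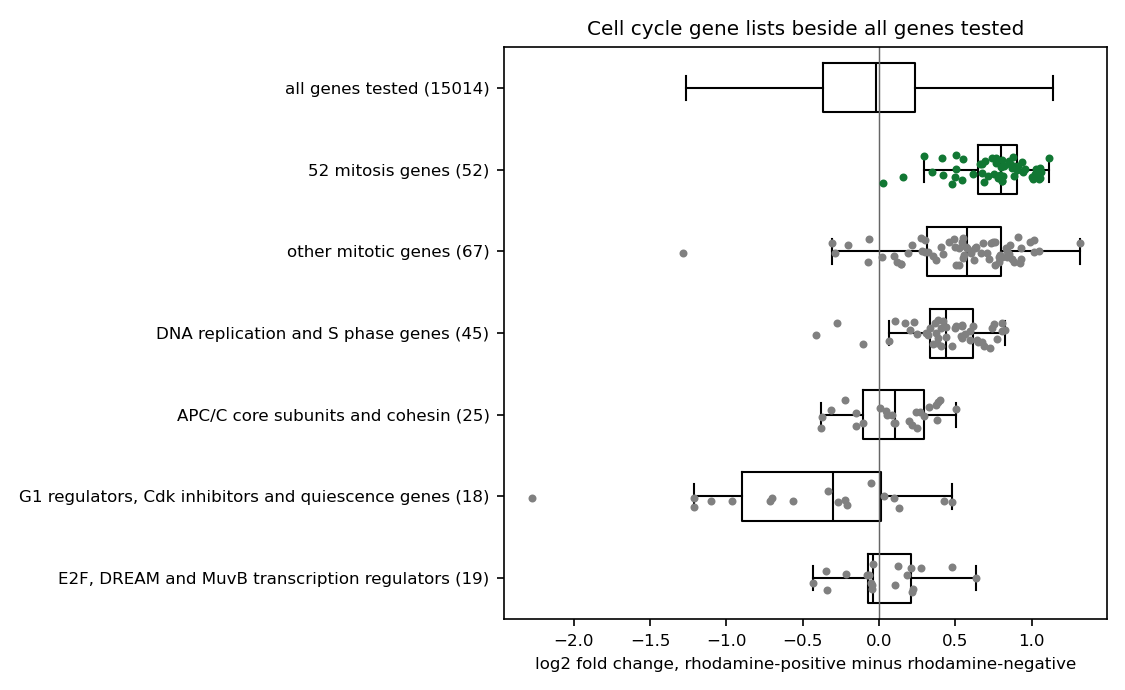
Log2 fold change (x axis, rhodamine-positive minus rhodamine-negative) of the genes of each cell cycle list (points) and of all 15014 genes tested (top box). Boxes are quartiles with the median as a line and whiskers at up to 1.5 box lengths; the medians are 0.80 for the 52 mitosis genes, 0.58 for other mitotic genes, 0.44 for S phase genes and -0.30 for G1 regulators.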

How the data were processed

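Polyadenylated RNA from 12 sorts was read on an Illumina sequencer, according to the protocol text. The authors deposited raw counts per gene, and the submitters' processing notes name bcl2fastq 2.17, cutadapt, HISAT2 2.1.0, featureCounts 1.4.4, edgeR, limma and the build mm10. The deposited log2 table was used only as an alternative. The annotation release and strand setting are not given in the sources used here, and gene positions and lengths came from GENCODE on mm10.

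Counts were fitted with edgeR 4.0.16 in R 4.3.3 (TMM scaling, filterByExpr with a minimum count of 10, mouse as a block, quasi-likelihood test, Benjamini-Hochberg over 15014 genes, threshold 0.05), after the code was tested on simulated data. Differences within a mouse used log2 CPM with a prior count of 2. The mice pair the libraries by the study's design, and the correlation of paired deviations was 0.0775 to 0.450 in the 6 mice. In mouse 4 this value (0.0775) was below the highest correlation with an opposite-sort library of another mouse (0.187). In the other mice it was above that. Libraries of a sort differed by far more than counting noise. Alternatives used limma 3.58.1 and DESeq2 1.42.0, other scalings and filters, each mouse left out, and males alone.

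Values are named for the 2 most abundant genes of each role, the 2 largest and 2 smallest changes, and the 3 smallest p of each other list. The members and lists were chosen with earlier results of these data known, so no p is given for a list. Of 71 further mitotic symbols, 67 are in the count table. Promoter letters were read from RefSeq windows of GRCm38.p6.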

Additional observations from a re-analysis of the deposited data

Results flagged for a closer look

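In 7 of 106 groups of 6 values checked (the 52 genes and their sum in each sort), 1 library stood apart from the other 5 by Dixon's gap over range. Chance alone puts about 1 in 20 groups past the critical gap used. In the rhodamine-positive library of mouse 1, Ccna2 stood at 110.2 CPM (others 78.2 to 85.8) and Mki67 at 92.1 CPM (others 71.0 to 77.9). In the rhodamine-positive library of mouse 6, Mad2l1 stood at 35.9 CPM (others 19.6 to 25.3), Hmmr at 25.8 CPM (others 13.5 to 17.0) and Pttg1 at 57.2 CPM (others 44.8 to 47.9). In the rhodamine-negative library of mouse 4, Prc1 stood at 19.5 CPM (others 25.6 to 29.2), and in that of mouse 1, Ncapg stood at 14.8 CPM (others 11.5 to 12.7). The calls of Ccna2, Mki67, Mad2l1, Hmmr, Prc1 and Ncapg as higher were kept when each mouse was left out in turn. In male mice alone, which leaves out mice 5 and 6, Mad2l1 (edgeR adjusted p = 0.0690) and Hmmr (edgeR adjusted p = 0.0812) were not called.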

How the results depend on the processing

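Under 18 other settings the 52 mitosis genes kept 40 to 48 calls higher and 0 lower, and 38 genes were called higher in every setting. With mice left out one at a time, 44 to 47 were higher, with a median log2 fold change of 0.75 to 0.83. Without the replicate block 47 were higher (Incenp lost), while all genes called higher fell to 1270, core APC/C and cohesin to 2 higher and 1 lower, and E2F, DREAM and MuvB regulators to 1 higher and 0 lower. With scaling by total count alone, calls over all genes were 852 higher and 3142 lower, further mitotic genes 26 higher and 2 lower, S phase genes 18 higher and 1 lower, core APC/C and cohesin 1 higher, and E2F, DREAM and MuvB regulators 2 lower. In male mice alone, which leaves fewer pairs, the counts were 1005 higher and 1222 lower over all genes, 40 of the 52, 23 further mitotic genes, 18 S phase genes, 2 APC/C and cohesin genes and 1 E2F, DREAM or MuvB gene higher. At a threshold of 0.01 they were 908 and 1033 over all genes, 41 of the 52, 23 further mitotic genes, 2 higher and 1 lower of APC/C and cohesin, and 1 higher and 0 lower of E2F, DREAM and MuvB. Limma-voom called 2 G1 genes higher, the fit of deposited log2 values 3 APC/C and cohesin genes higher, the GC and length offset with the replicate block 1 APC/C and cohesin gene lower, and no low-count filter 0 E2F, DREAM and MuvB genes lower. With a mouse left out, ranges were 1257 (without mouse 3) to 1780 for all genes higher, 26 (without mouse 6) to 39 for further mitotic genes higher, 2 to 5 higher and 1 to 3 lower for APC/C and cohesin, 1 to 3 higher and 0 to 1 lower for E2F, DREAM and MuvB, and 1 to 2 higher for G1 genes. A stricter threshold can only lower counts. For the other settings the cause was not tested, and leaving mice out changes which mice remain as well as the number of pairs. No result reversed among called values. Of the 52, Ttk had the lowest count in a library (31) and the largest SE (0.266).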
